A study of Mus musculus with 6 samples.

Results

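The genes described here make cholesterol and fatty acids. They are 35 genes chosen by name: 17 enzymes of the sterol branch, from the mevalonate pathway to the last step before cholesterol, 15 genes of the fatty acid branch, and 3 regulators, Insig1, Srebf1 and Srebf2. All 35 had a probe set annotated to that gene alone, out of 19937 genes measured. They were followed in whole mammary tumours of 6 female FVBN mice, 1 tumour from each mouse, on Affymetrix arrays. All the mice carried the MMTV-PyMT transgene, in which the mouse mammary tumour virus promoter expresses polyoma middle T antigen in mammary epithelium, and were 75 to 90 days old. In the vehicle group 3 mice received DMSO, and in the TMP195 group 3 received TMP195 at 50 mg/kg, in both cases once daily by intraperitoneal injection. TMP195 inhibits class IIa histone deacetylases. The length of dosing is given as 5 days in one description and as 2 weeks in another.

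Cells make cholesterol from acetyl-CoA through mevalonate, farnesyl diphosphate, squalene and lanosterol. Fatty acids start from the same acetyl-CoA, which acetyl-CoA carboxylase turns into malonyl-CoA for fatty acid synthase, and desaturases and elongases then shape the chains. Both branches are transcribed under the sterol regulatory element binding proteins: SREBP-2, the product of Srebf2, acts mainly on sterol genes, and SREBP-1c, a product of Srebf1, mainly on fatty acid genes. Insig1 encodes a protein that holds these factors in the endoplasmic reticulum when sterols are plentiful, and is itself one of their targets. In the mammary gland fatty acid synthesis serves milk fat, and the adipocytes around the gland use the same enzymes.

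The promoters were examined for the letters that such factors bind. RefSeq windows of the 250 bases before a start site (build GRCm38.p6) were held for 29 of the 35 genes; Fdps, Fdft1, Sqle, Scd1, Scd2 and Fads1 had no entry. Both strands were searched for CCAAT, the NF-Y box, for GGGCGG, the GC box bound by Sp1, for CACGTG, an E-box, and for TCACNCCAC, a sterol regulatory element. All 14 sterol enzymes with an entry had CCAAT in at least 1 window, as did 7 of 12 fatty acid genes and the 3 regulators. Counted by window, CCAAT stood in 14 of 17 sterol windows and 7 of 14 fatty acid windows, against 33.8% of all 32851 windows. GGGCGG stood in 14 of 17 sterol windows and 6 of 14 fatty acid windows, against 32.7% of all windows. Of the 5 regulator windows, 4 held CCAAT and 4 held GGGCGG. The strict sterol element was found in 1 member, Hmgcs1, and in 1.05% of all windows. The E-box stood in 3 of 17 sterol windows, 1 of 14 fatty acid windows and 1 of 5 regulator windows, against 6.02% of all windows. These matches describe letters and do not show binding, and their part in the differences between tumours was not tested.

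Windows are printed for the first sterol enzyme and the 3 sterol enzymes with the largest SD over the tumours, followed by fatty acid synthase and by Thrsp, the fatty acid gene with the largest SD. Each reads 5′ to 3′ toward the start site, with every match to the 4 motifs in capitals; no match to one motif overlaps a match to another in them, and the longer run of capitals in Fasn is 2 CCAAT matches, on opposite strands, that share bases.
Hmgcs1, chr13:119690101-119690350, plus strand: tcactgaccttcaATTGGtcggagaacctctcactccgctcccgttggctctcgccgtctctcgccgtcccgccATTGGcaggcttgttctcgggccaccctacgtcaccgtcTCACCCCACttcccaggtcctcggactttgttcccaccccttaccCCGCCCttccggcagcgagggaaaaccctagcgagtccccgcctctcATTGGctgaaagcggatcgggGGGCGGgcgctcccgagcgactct
Mvd, chr8:122443423-122443672, minus strand: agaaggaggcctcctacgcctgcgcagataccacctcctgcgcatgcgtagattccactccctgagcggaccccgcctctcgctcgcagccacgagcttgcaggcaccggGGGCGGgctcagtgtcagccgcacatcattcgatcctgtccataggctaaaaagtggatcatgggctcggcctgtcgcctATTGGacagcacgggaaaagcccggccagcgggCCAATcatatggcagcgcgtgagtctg
Idi1, chr13:8885356-8885605, plus strand: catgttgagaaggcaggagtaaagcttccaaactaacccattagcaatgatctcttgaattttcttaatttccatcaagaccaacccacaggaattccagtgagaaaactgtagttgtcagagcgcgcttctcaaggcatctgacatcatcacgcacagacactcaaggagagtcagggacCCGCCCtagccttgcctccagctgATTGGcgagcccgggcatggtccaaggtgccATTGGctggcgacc
Cyp51, chr5:4104698-4104947, minus strand: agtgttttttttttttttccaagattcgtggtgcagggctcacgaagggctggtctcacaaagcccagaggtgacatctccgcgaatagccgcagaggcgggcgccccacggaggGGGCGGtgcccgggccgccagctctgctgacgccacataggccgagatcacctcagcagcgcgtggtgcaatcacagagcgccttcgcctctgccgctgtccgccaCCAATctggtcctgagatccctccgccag
Fasn, chr11:120824548-120824797, minus strand: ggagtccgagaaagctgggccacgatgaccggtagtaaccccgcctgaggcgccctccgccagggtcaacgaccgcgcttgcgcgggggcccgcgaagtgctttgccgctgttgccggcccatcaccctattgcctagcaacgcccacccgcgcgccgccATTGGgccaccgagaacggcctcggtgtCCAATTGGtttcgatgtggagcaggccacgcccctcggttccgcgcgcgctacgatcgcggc
Thrsp, chr7:97417551-97417800, minus strand: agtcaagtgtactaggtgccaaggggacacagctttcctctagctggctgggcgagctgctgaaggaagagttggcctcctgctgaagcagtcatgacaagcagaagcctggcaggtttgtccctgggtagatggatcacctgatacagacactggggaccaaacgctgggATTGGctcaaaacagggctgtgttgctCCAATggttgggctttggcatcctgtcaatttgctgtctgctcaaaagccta

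The arrays had nearly the same distribution, with median intensities from 44.8 to 46.4, and pairs of tumours correlated at 0.982 to 0.997 across genes (Spearman). TMP195 tumour 2 stood apart, with 150 genes more than 2-fold above and 89 more than 2-fold below every other tumour, and so did vehicle tumour 2, with 60 and 5. Luminal epithelial markers were high, with mean intensities at percentiles 88.8 to 99.3 of all genes, but not all were even: Epcam spanned 1.08-fold over the 6 tumours, whereas Krt19 spanned 2.19-fold, highest in TMP195 tumour 2, and Cldn4 1.90-fold, lowest there. Marker transcripts of milk secretion, fat and muscle differed between tumours, and their values stand beside the results below. In a whole tumour, fewer cells of a type and less RNA per cell cannot be told apart.

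No member passed the test between the dosing groups over all genes. In limma 0 of 35 passed an adjusted p of 0.05, as did 0% of all genes, and every member had an adjusted p of 1.00. Without adjustment 0 members had a p under 0.05, against 2.52% of all genes (1.18% higher and 1.34% lower under TMP195). The groups overlapped in all 35, whereas 6.68% of all genes had groups that did not overlap (3.47% higher and 3.21% lower). The members differed instead from tumour to tumour, and the 2 branches did so in different tumours. The map of deviations shows this: most sterol enzymes were highest in vehicle tumour 2, and most genes of fatty acid chain synthesis were lowest in TMP195 tumour 2.

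**Figure D1:**
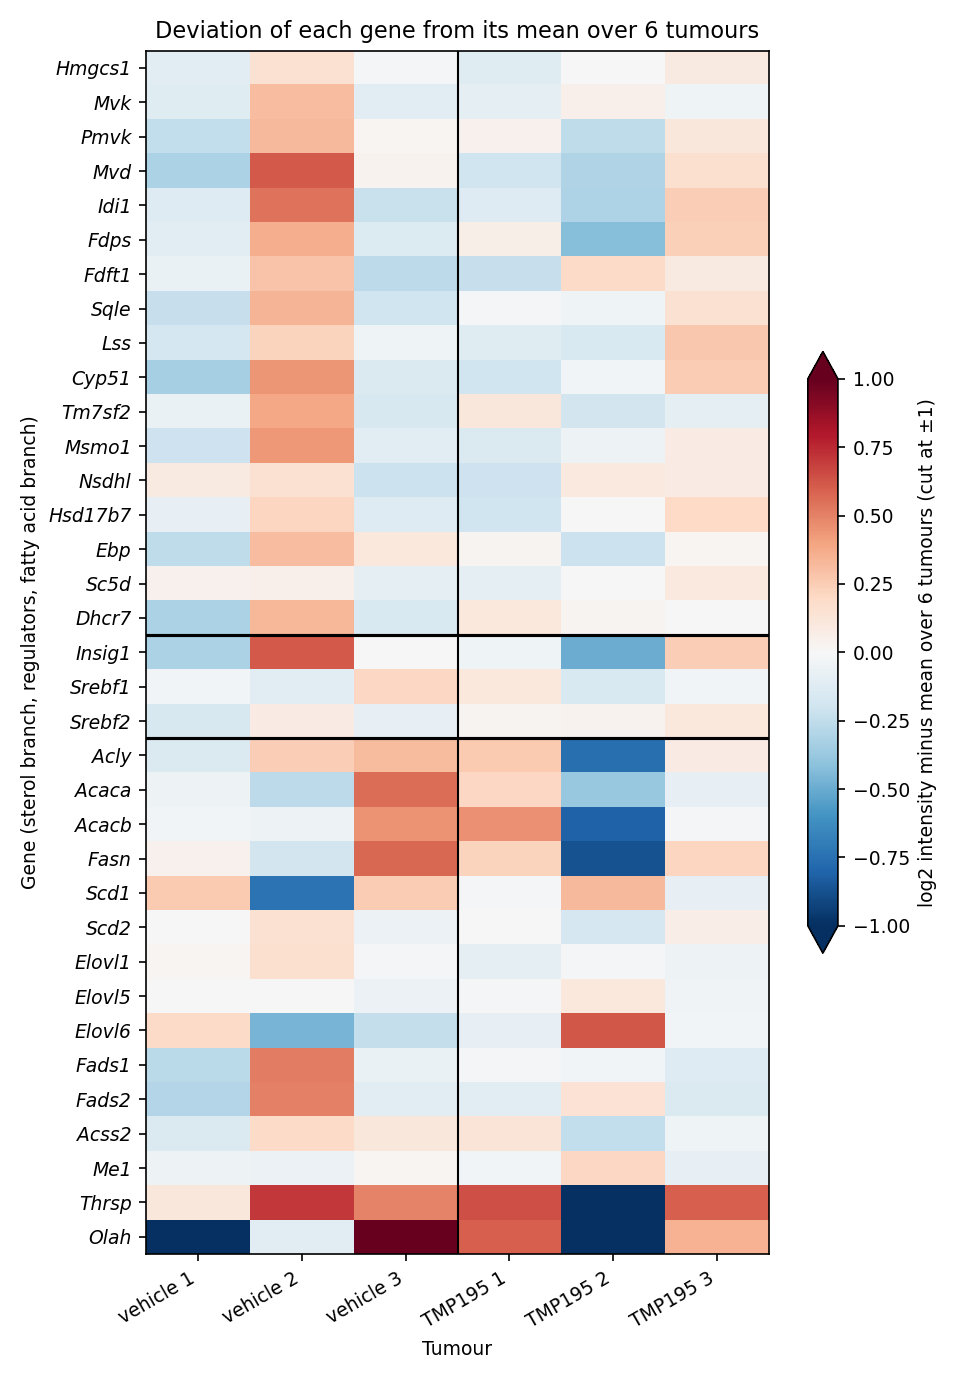
Deviation of each of the 35 genes (rows) from its own mean over the 6 tumours (columns), in log2 intensity, with red above and blue below the mean and the colour cut at 1 in either direction. Vehicle tumour 2 is red in all 17 sterol rows at the top, and TMP195 tumour 2 is blue in Acly, Acaca, Acacb, Fasn, Thrsp and Olah.

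The mevalonate steps come first. Hmgcs1 encodes HMG-CoA synthase, which makes the substrate of the pathway's rate-limiting step. It measured 8.20, 8.47 and 8.29 under vehicle and 8.19, 8.32 and 8.40 under TMP195, on the log2 intensity scale used throughout; such series list tumours 1, 2 and 3 of each group in order. Its groups overlapped, and it spanned only 1.21-fold over the tumours. Mvd, the decarboxylase that yields isopentenyl diphosphate, had the widest span of the branch, 1.90-fold. It measured 6.84, 7.77 and 7.19 under vehicle and 6.96, 6.86 and 7.32 under TMP195, so that a vehicle tumour was highest and another vehicle tumour lowest. Idi1, the isomerase of the next step, measured 7.44, 8.11 and 7.35 under vehicle and 7.44, 7.26 and 7.81 under TMP195. Vehicle tumour 2 and TMP195 tumour 3 were the 2 highest, and a second probe set of Idi1 followed the first closely (r = 1.00 over 6 tumours). Fdps, which joins isoprene units into farnesyl diphosphate, measured 7.18, 7.65 and 7.15 under vehicle and 7.35, 6.87 and 7.52 under TMP195, the same high pair. Mvk and Pmvk, the kinases of mevalonate and phosphomevalonate, spanned 1.35-fold and 1.49-fold and were also highest in vehicle tumour 2.

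At the squalene steps, Sqle encodes squalene epoxidase, a second control point of the branch. It measured 7.78, 8.35 and 7.81 under vehicle and 7.99, 7.97 and 8.16 under TMP195. Fdft1, squalene synthase, measured 7.66, 8.02 and 7.47 under vehicle and 7.50, 7.92 and 7.82 under TMP195. Vehicle tumour 2 was highest in both, while TMP195 tumour 2 was next for Fdft1 and TMP195 tumour 3 for Sqle.

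The sterol ring steps came next. Cyp51, the demethylase of lanosterol, measured 6.74, 7.51 and 6.92 under vehicle and 6.87, 7.04 and 7.32 under TMP195. Msmo1, a sterol C4 oxidase chosen here after its values were seen, measured 7.25, 7.88 and 7.34 under vehicle and 7.31, 7.40 and 7.53 under TMP195, and followed the rest of the branch most closely of all members (r = 0.98). In both genes vehicle tumour 2 was highest, TMP195 tumour 3 next and vehicle tumour 1 lowest. Ebp, the sterol isomerase, measured 8.39, 8.95 and 8.75 under vehicle and 8.67, 8.43 and 8.67 under TMP195. Dhcr7, the reductase that ends one route to cholesterol, measured 8.56, 9.21 and 8.73 under vehicle and 8.98, 8.91 and 8.87 under TMP195, so the TMP195 tumours lay between the vehicle ones. Lss, which closes the sterol ring, and Sc5d, a desaturase of the ring, were the only enzymes of the branch highest in TMP195 tumour 3 rather than in vehicle tumour 2. Sc5d was the most even, with a span of 1.14-fold. Tm7sf2, Nsdhl and Hsd17b7, further reductases and a dehydrogenase of the ring, spanned from 1.29-fold to 1.48-fold.

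Vehicle tumour 2 was thus the highest of the 6 tumours in 15 of 17 sterol enzymes, against 24.2% of all genes. It exceeded the mean of the other 5 tumours in 17 of 17, by 0.06 in Sc5d to 0.74 in Mvd, with a median of 0.39 on the log2 scale. In 11 of 17 the 2 highest tumours were vehicle tumour 2 and TMP195 tumour 3, against 10.9% of all genes. The mean deviation of the branch was -0.15, 0.32 and -0.11 under vehicle and -0.08, -0.09 and 0.11 under TMP195. Each enzyme was also set against the mean deviation of the other 16: Pearson r ran from 0.46 for Nsdhl to 0.98 for Msmo1, with a median of 0.83. An r above 0.7 was reached by 14 of 17, against 13.1% of all genes. These correlations over 6 tumours are descriptions, and the tumours share 1 normalization. The mevalonate and ring steps had r = 0.95 and rho = 0.60 with each other. Without vehicle tumour 2 and TMP195 tumour 3, the farthest from the median, r was -0.07, so the relation did not hold without that pair, whereas without vehicle tumour 2 and TMP195 tumour 2 r was 0.98.

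Other transcripts were also high in vehicle tumour 2. Skeletal muscle markers, of which 7 of 7 were measured, had a mean level of 7.89 there and of 4.72 to 5.09 in the other tumours. In the vehicle group that list ranged from 4.82 to 7.89 and in the TMP195 group from 4.72 to 5.09. Proliferation genes, 6 of 7 measured, had a mean level of 8.76 in vehicle tumour 2, against 8.31 and 8.34 in the other vehicle tumours and 8.29, 7.72 and 8.53 under TMP195. The sterol value and the proliferation value had r = 0.70 and rho = 0.49, with r = -0.42 without vehicle tumour 2 and TMP195 tumour 3 and r = 0.90 without vehicle tumour 2 and TMP195 tumour 2. The sterol value and the muscle value had r = 0.90 and rho = 0.60, with r = -0.39 and r = 0.96 without the same pairs. The mean of the luminal epithelium markers was also highest in vehicle tumour 2, at 10.37. It had r = 0.61 with the sterol value, and r = 0.45 and r = -0.33 without the same pairs. Adipocyte and fibroblast values had r = -0.40 and r = -0.50 with the sterol value. Without vehicle tumour 2 and TMP195 tumour 3 these were -0.07 and -0.08. The part of muscle, luminal, fat, fibroblast or dividing cells in the sterol differences was not tested.

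The regulators differed in how they followed the branches. Insig1 measured 8.24, 9.18 and 8.55 under vehicle and 8.52, 8.07 and 8.80 under TMP195, a 2.16-fold span and the widest of the 3. Vehicle tumour 2 was highest and TMP195 tumour 2 lowest. Insig1 had r = 0.90 with the sterol value and 0.57 with the fatty acid value, and r = 0.95 and rho = 0.94 with Mvd, which held without the 2 farthest tumours (r = 0.92). Srebf2 measured 8.30, 8.54 and 8.39 under vehicle and 8.49, 8.50 and 8.57 under TMP195. It was highest in TMP195 tumour 3 and varied little, with r = 0.71 with the sterol value and -0.04 with the fatty acid value. Srebf1 measured 10.48, 10.40 and 10.71 under vehicle and 10.61, 10.35 and 10.48 under TMP195, highest in vehicle tumour 3. It had r = -0.40 with the sterol value and 0.83 with the fatty acid value, and r = 0.96 with both adipocyte and fibroblast markers, whose part in its differences was not tested. Srebf1 and Fasn had r = 0.87 and rho = 0.94, and r = 0.95 without the tumours farthest from the median of Srebf1.

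**Figure D2:**
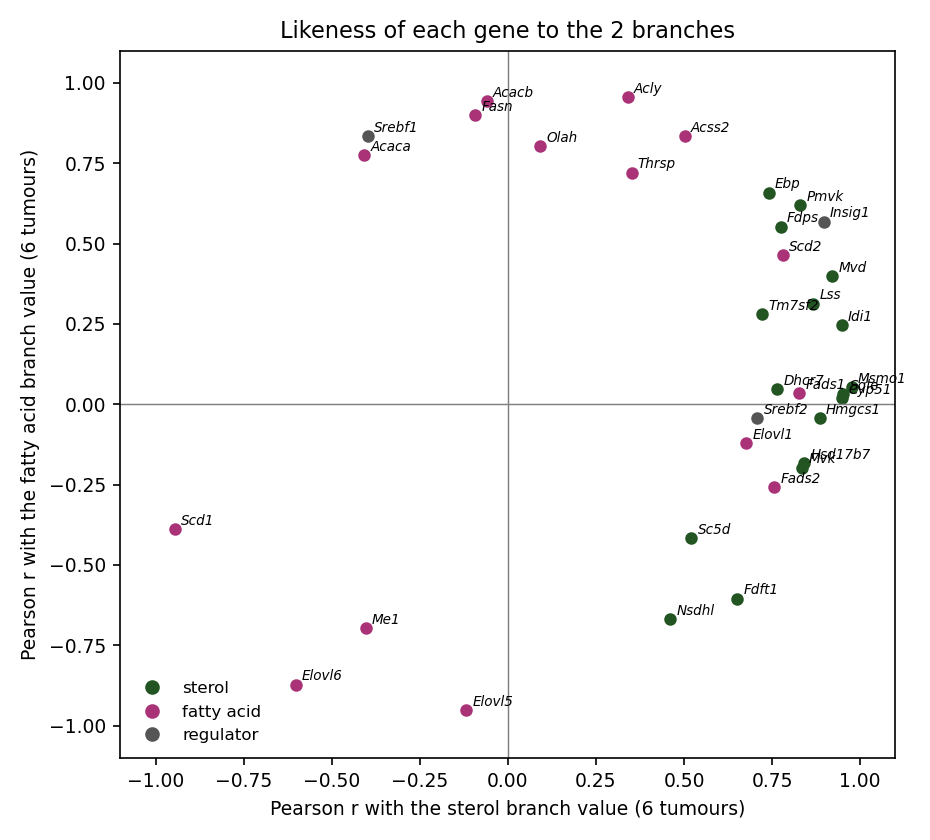
Each point is 1 gene, placed by its Pearson r over 6 tumours with the mean deviation of the sterol branch (horizontal) and of the fatty acid branch (vertical), the gene itself left out, and coloured by branch. All 17 sterol enzymes lie to the right of 0, Srebf1 lies near Acaca at the top, and Scd1 and Elovl6 lie at the lower left.

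In the fatty acid branch, chain synthesis varied far more than sterol synthesis. Acaca encodes acetyl-CoA carboxylase 1, the committed step. It measured 8.88, 8.67 and 9.49 under vehicle and 9.14, 8.55 and 8.85 under TMP195, and a second probe set followed it (r = 0.96). Fasn, fatty acid synthase, measured 10.21, 9.98 and 10.74 under vehicle and 10.38, 9.29 and 10.38 under TMP195, a 2.72-fold span. Vehicle tumour 3 was highest and TMP195 tumour 2 lowest in both genes. Acacb, the carboxylase of the mitochondrial surface that governs fatty acid oxidation, was chosen after its values were seen and spanned 2.40-fold. It measured 6.35, 6.32 and 6.83 under vehicle and 6.83, 5.56 and 6.36 under TMP195, with TMP195 tumour 2 alone at the bottom. Acly, which makes cytosolic acetyl-CoA from citrate, was likewise chosen after its values were seen. It measured 10.10, 10.49 and 10.56 under vehicle and 10.50, 9.49 and 10.32 under TMP195.

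Thrsp and Olah had the widest spans of all 35 genes. Thrsp encodes the nuclear protein Spot 14, which promotes fatty acid synthesis in the mouse mammary gland. It measured 10.81, 11.40 and 11.19 under vehicle and 11.33, 8.14 and 11.29 under TMP195, a 9.58-fold span. TMP195 tumour 2 differed from the mean of the other 5 by -3.07 on the log2 scale, and Thrsp was the 1 member more than 2-fold below every other tumour there. Olah, the thioesterase that releases medium-chain fatty acids in the mammary gland, measured 3.30, 4.29 and 5.75 under vehicle and 4.99, 3.30 and 4.74 under TMP195. It was dim, at percentile 34.7 of mean intensity, with a 5.47-fold span and its lowest values in vehicle tumour 1 and TMP195 tumour 2.

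Of the 5 chain synthesis genes 4 were lowest in TMP195 tumour 2, and Olah was equally low there and in vehicle tumour 1; TMP195 tumour 2 was the lowest tumour in 22.4% of all genes. Its difference from the mean of the other 5 ran from -3.07 for Thrsp to -0.45 for Acaca. In 4 of the 5 the 2 highest tumours were vehicle tumour 3 and TMP195 tumour 1, against 6.28% of all genes. Their mean deviation was -0.20, 0.02 and 0.69 under vehicle and 0.42, -1.14 and 0.21 under TMP195. The SD over the 6 tumours was above the 90th percentile of all genes, which by construction holds 10% of them, in 8 of 15 fatty acid genes and in 1 of 17 sterol enzymes. Spans over the tumours had a median of 1.92-fold in the fatty acid branch and of 1.48-fold in the sterol branch.

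Desaturases and elongases varied in several ways. Of these 7 genes, Scd2 was lowest in TMP195 tumour 2, while Scd1, Elovl5 and Elovl6 were highest there. With the supply gene Me1, 4 of 15 fatty acid genes were highest in TMP195 tumour 2, a share near the 25.4% of all genes, and 2 of 15, Scd1 and Elovl6, were lowest in vehicle tumour 2, against 18.7%. Scd1 and Scd2 encode stearoyl-CoA desaturases, close paralogs that make oleic acid from stearic acid. Scd1 measured 11.65, 10.64 and 11.64 under vehicle and 11.37, 11.71 and 11.30 under TMP195. It was lowest in vehicle tumour 2, where the sterol enzymes were highest, and had r = -0.94 with the sterol value. Scd2 measured 11.41, 11.56 and 11.35 under vehicle and 11.41, 11.24 and 11.47 under TMP195, and was highest in vehicle tumour 2. The paralogs had r = -0.86 and rho = -0.94 with each other, and r = -0.63 without the tumours farthest from the median of Scd1. How far either probe set reads the other transcript was not tested.

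Elovl6, the elongase of palmitate, measured 9.25, 8.60 and 8.83 under vehicle and 8.98, 9.69 and 9.04 under TMP195. It was highest in TMP195 tumour 2 and lowest in vehicle tumour 2, with r = -0.60 to the sterol value and -0.87 to the fatty acid value. Elovl1, an elongase of very long chains, measured 9.96, 10.10 and 9.93 under vehicle and 9.85, 9.93 and 9.89 under TMP195, a 1.19-fold span. Elovl5, which lengthens polyunsaturated chains, was the most even member, at 1.12-fold.

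Fads1 and Fads2, the delta-5 and delta-6 desaturases of polyunsaturated fatty acids, were chosen after their values were seen. Fads1 measured 9.70, 10.48 and 9.90 under vehicle and 9.96, 9.94 and 9.84 under TMP195. Fads2 measured 9.76, 10.55 and 9.94 under vehicle and 9.94, 10.19 and 9.90 under TMP195. Both were highest in vehicle tumour 2 and lowest in vehicle tumour 1, as was Mvd, with r = 0.83 and 0.76 to the sterol value and 0.03 and -0.26 to the fatty acid value. They did not follow the sterol branch in TMP195 tumour 3. The sterol value there was 0.11, but Fads1 and Fads2 deviated by -0.13 and -0.15. With each other they had r = 0.95 and rho = 0.83, and r = 0.51 without the farthest tumours, both of them vehicle tumours. Of the supply genes, Acss2, which makes acetyl-CoA from acetate, spanned 1.36-fold and had r = 0.83 with the fatty acid value. Me1, the malic enzyme that yields NADPH, spanned 1.22-fold and had r = -0.70.

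**Figure D3:**
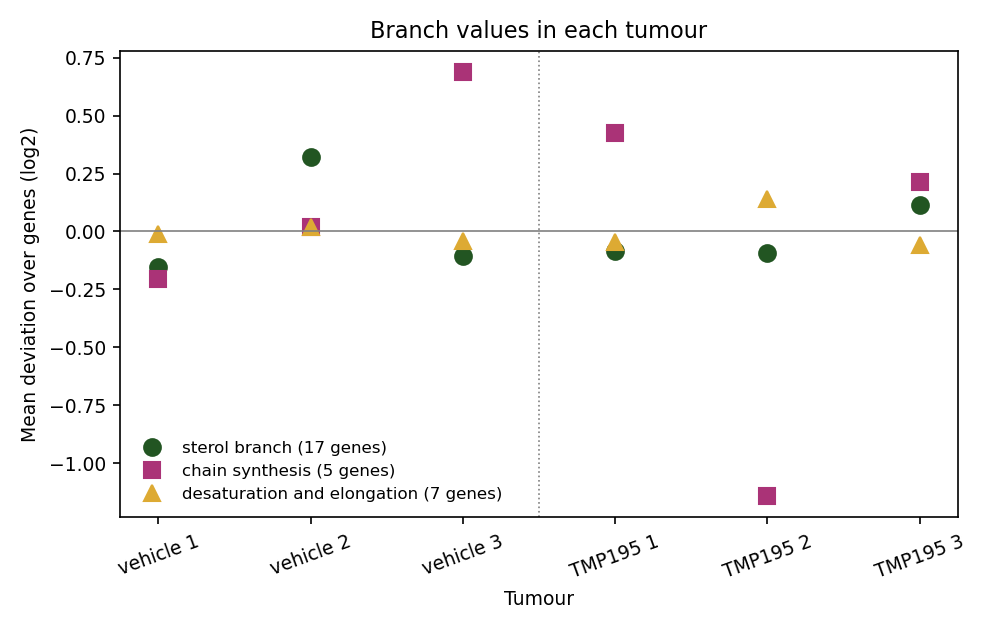
Mean deviation from the 6-tumour mean, in log2 intensity, for the sterol branch, chain synthesis and desaturation and elongation in each tumour; every point is a mean over the genes of that set. The sterol points peak at 0.32 in vehicle tumour 2, and the chain synthesis points run from -1.14 in TMP195 tumour 2 to 0.69 in vehicle tumour 3.

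The 2 branches were also compared as wholes. The mean deviation of the whole fatty acid branch was -0.10, 0.04 and 0.24 under vehicle and 0.14, -0.37 and 0.04 under TMP195. With the sterol value it had r = 0.15 and rho = 0.09, and r = 0.10 without vehicle tumour 2 and TMP195 tumour 3. Within the fatty acid branch, the mean deviation of chain synthesis and that of the desaturases and elongases had r = -0.92 and rho = -0.71, and r = -0.65 without vehicle tumour 3 and TMP195 tumour 2. Few genes carried the second mean: in TMP195 tumour 2 the deviation was 0.62 for Elovl6 and 0.32 for Scd1, but -0.17 for Scd2, -0.03 for Fads1 and -0.02 for Elovl1. The fatty acid value minus the sterol value was 0.06, -0.28 and 0.35 under vehicle and 0.23, -0.28 and -0.07 under TMP195. Each group thus held a tumour with a positive and one with a negative value, and the groups overlapped. In TMP195 tumour 2 the fatty acid value rested largely on Thrsp and Olah. Without those genes it was -0.14 there, beside a sterol value of -0.09, and 0.13 in vehicle tumour 3, beside -0.11.

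Milk, fat and fibroblast transcripts had a positive r with chain synthesis, which was lower without vehicle tumour 3 and TMP195 tumour 2. Milk secretion markers, 8 of 9 measured, had a mean level of 9.02, 10.13 and 10.54 under vehicle and of 9.86, 7.21 and 10.06 under TMP195. The milk value and the chain synthesis value had r = 0.95 and rho = 0.77, and r = 0.63 without vehicle tumour 3 and TMP195 tumour 2. Adipocyte markers, 11 of 12 measured, ranged from 5.80 to 8.01 in the vehicle group and from 4.89 to 7.44 in the TMP195 group, and were highest in vehicle tumour 3 and TMP195 tumour 1. With chain synthesis they had r = 0.82 and rho = 0.83, and r = 0.34 without the same tumours. Fibroblast markers, 6 of 6 measured, ranged from 9.42 to 10.14 in the vehicle group and from 9.33 to 9.996 in the TMP195 group. With chain synthesis they had r = 0.81 and rho = 0.83, and r = 0.42 without that pair. Proliferation genes had r = 0.65 and rho = 0.09 with chain synthesis, were lowest in TMP195 tumour 2, and had r = -0.21 without that pair. With vehicle tumour 2 and TMP195 tumour 2 left out instead, r was 0.94 for milk, 0.64 for adipocyte and 0.76 for fibroblast markers. For proliferation genes it was -0.27. Adipoq, the adipocyte hormone adiponectin, measured 6.70, 5.02 and 8.62 under vehicle and 7.98, 3.93 and 5.29 under TMP195, and Csn2, the milk protein beta-casein, 9.86, 10.71 and 11.82 and 11.24, 6.03 and 11.22. Of the 8 milk genes 7 were lowest in TMP195 tumour 2; Csn3, kappa-casein, was highest there, at 11.98, with a span of 1.19-fold. Luminal epithelium, 9 of 9 markers measured, ranged from 10.23 to 10.37 in the vehicle group and from 10.23 to 10.28 in the TMP195 group. Its value and the chain synthesis value had r = 0.39 and rho = 0.43. That r was 0.04 without vehicle tumour 3 and TMP195 tumour 2, and 0.91 without vehicle tumour 2 and TMP195 tumour 2. Sebaceous gland markers, 4 of 5 measured, were all dim, at percentile 27.4 or lower. The part of alveolar, luminal, fat, fibroblast or dividing cells in the chain synthesis differences was not tested.

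**Figure D4:**
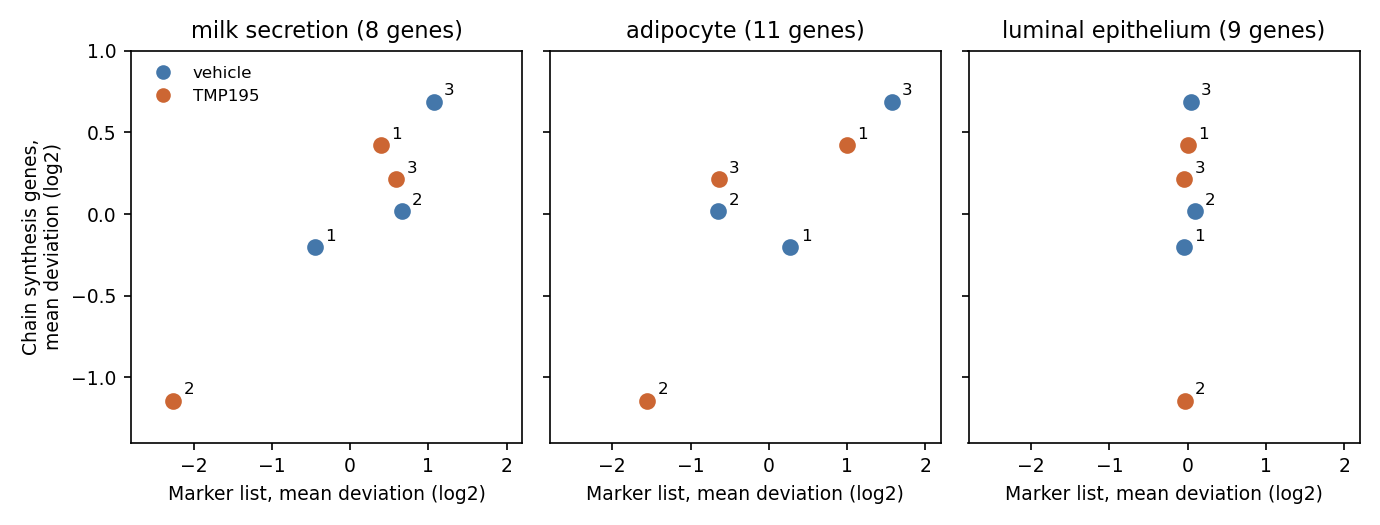
Mean deviation of the 5 chain synthesis genes (vertical) against that of milk secretion, adipocyte and luminal epithelium markers (horizontal), in log2 intensity, on the same axes; each point is a tumour, numbered within its group and coloured by group. TMP195 tumour 2 lies lowest at the left of the milk and fat panels, and the mean of the luminal markers stays near 0 in every tumour.

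TMP195 was then set against vehicle gene by gene, to ask whether dosing altered either branch. In the sterol branch 6 enzymes had a higher and 11 a lower mean under TMP195, with a median difference of -0.02 on the log2 scale, and the differences lay between -0.22 for Mvd and 0.09 for Dhcr7. Over all genes 49.5% were higher, 50.5% were lower and the median was -0.0014. In the fatty acid branch 4 were higher and 11 lower, with a median of -0.11, from -0.88 for Thrsp to 0.34 for Elovl6. The mean of Fasn was 10.31 ± 0.39 (SD) in 3 vehicle tumours, against 10.02 ± 0.63 (SD) in 3 TMP195 tumours. The difference of Elovl1, -0.11, was larger than the SD of either group (0.095 and 0.037); in the other 31 branch genes it was smaller than the larger of the 2 group SDs. In limma 0 of 32 branch genes passed the test.

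The intervals say how large a change these arrays leave room for. For Hmgcs1 the difference was -0.02 ± 0.11 (SE), with a 95% interval of -0.27 to 0.24, and for Sqle it was 0.06 ± 0.17 (SE), from -0.34 to 0.46. For Srebf2 it was 0.11 ± 0.10 (SE), from -0.12 to 0.34, and for Srebf1 -0.05 ± 0.12 (SE), from -0.34 to 0.23. Elovl6 had the smallest unadjusted p of the members, 0.193 in limma, with a difference of 0.34 ± 0.24 (SE) and an interval of -0.22 to 0.91. Intervals lay within a 1.5-fold change in either direction for 15 of 17 sterol enzymes but for 7 of 15 fatty acid genes, against 16033 of all 19937 genes. All 17 sterol enzymes and 12 of 15 fatty acid genes lay within a 2-fold change, against 19066 of all 19937 genes. The interval for Thrsp ran from -2.82 to 1.06 and that for Fasn from -1.08 to 0.50, and Olah differed by -0.10 ± 0.68 (SE).

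**Figure D5:**
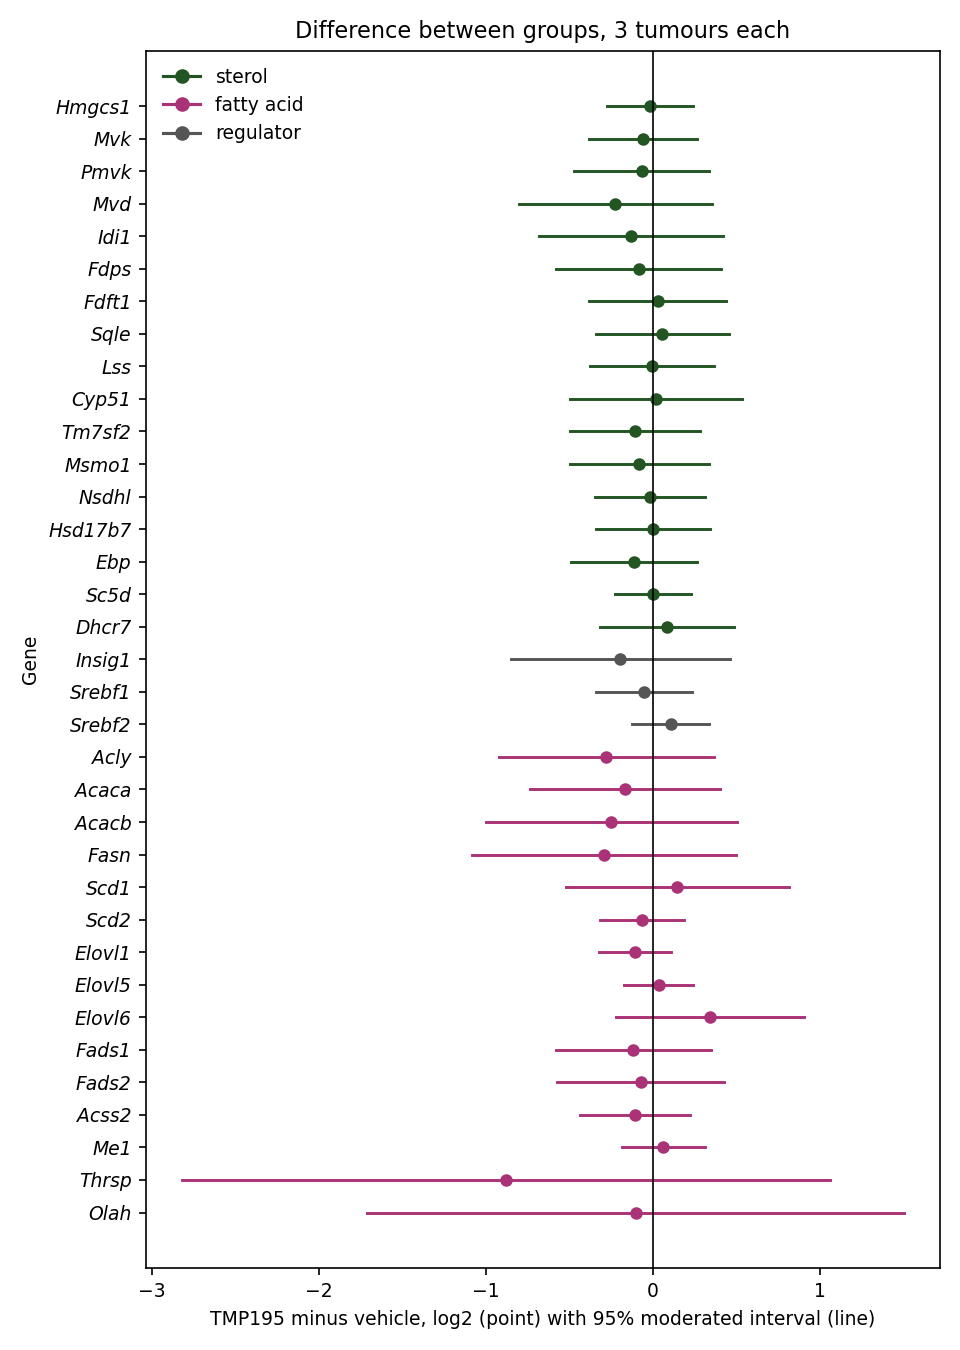
Difference between the means of 3 TMP195 and 3 vehicle tumours for each gene, in log2 intensity, with the 95% moderated interval from limma as a line. Every interval crosses 0, and those of Thrsp and Olah are the widest.

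Single tumours set the direction of these differences. Without vehicle tumour 2 all 17 sterol enzymes had a higher mean under TMP195, with a median of 0.08 and differences from 0.02 for Ebp to 0.27 for Dhcr7. In that fit 1 member, Dhcr7, reached an unadjusted p of 0.0398 in limma, and 0 passed after adjustment. Without vehicle tumour 1, in contrast, 14 of 17 were lower (median -0.13), and without TMP195 tumour 3 or vehicle tumour 3, 16 of 17 were lower (medians -0.10 and -0.08). Without TMP195 tumour 1, 9 of 17 were higher (median 0.04). With limma's array weights 14 of 17 were higher (median 0.06), and with each array centred on its median 8 were higher and 9 lower. The fatty acid branch was lower in 11 of 15 in the whole set, and without TMP195 tumour 2 it was higher in 8 and lower in 7, with a median of 0.0019. Its median was -0.23 without vehicle tumour 1, -0.05 without vehicle tumour 2 and 0.0074 without vehicle tumour 2 and TMP195 tumour 2. Without TMP195 tumour 2 Thrsp differed by 0.18, Fasn by 0.07 and Olah by 0.42. Of the 35 members, 31 changed sign when some single tumour was left out. The same count was not made over all genes, so it cannot be read as particular to these members.

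Genes that act beside the members were compared from lists, and none passed the test over all genes in limma. In SREBP processing 2 of 3 measured genes were higher. Insig2, a second retention protein of SREBPs, differed by 0.16 ± 0.10 (SE) and Scap, their escort, by -0.07 ± 0.09 (SE). Insig2 measured 7.85, 7.84 and 7.78 under vehicle and 7.94, 8.14 and 7.86 under TMP195, so the groups did not overlap, as happened on the higher side in 3.47% of all genes. In sterol transport and oxysterol response 5 of 7 measured genes were higher, among them Mylip, the ubiquitin ligase of lipoprotein receptors (0.24 ± 0.31 SE), and Npc2, a lysosomal cholesterol carrier (0.04 ± 0.09 SE). In the elongation cycle 6 of 12 were higher, and the 2 with the smallest p, Elovl2 (-0.20 ± 0.10 SE) and Elovl3 (-0.47 ± 0.30 SE), were dim, Elovl2 at percentile 7.75 of mean intensity. In the supply of citrate and NADPH 1 of 5 was higher, with Pgd, an NADPH-yielding dehydrogenase, at -0.15 ± 0.12 (SE) and Slc25a1, the citrate carrier, at -0.12 ± 0.11 (SE).

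In triglyceride assembly 1 of 6 measured genes was higher under TMP195, Acsl4, an acyl-CoA synthetase that prefers arachidonic acid. It measured 11.06, 10.62 and 10.99 under vehicle and 11.26, 11.39 and 11.29 under TMP195. The groups did not overlap, and vehicle tumour 2 was lowest. The difference was 0.42 ± 0.13 (SE), with a 95% interval of 0.11 to 0.74, an unadjusted p of 0.0157 and an adjusted p of 1.00 in limma, so it did not pass. Leaving out single tumours gave differences from 0.29 to 0.51. Dgat1, which completes triglycerides, differed by -0.27 ± 0.16 (SE).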

How the data were processed

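Whole tumours of 6 mice, 3 per group, were measured on Affymetrix arrays. Per the submitters' processing notes the tools were RMA and Affymetrix Power Tools, with no version or filter named. The table the authors deposited holds a signal intensity for each of 27359 probe sets and was read as linear, because the array medians lay between 44.8 and 46.4; RMA itself returns log2 values, and no source states how they became linear. Normalizing arrays to each other hides a shift of most genes. Scan and extraction batches are not given, and depth does not apply to arrays, whose number limits the precision.

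Probe sets were named through the platform annotation: 21784 had 1 symbol, 1620 several and 3955 none, and 0 symbols changed in RefSeq. The probe set with the highest mean stood for each of 19937 genes, and log2 intensity was modelled in limma 3.58.1 (R 4.3.3; TMP195 minus vehicle, two-sided, no covariate, constant prior, Benjamini-Hochberg over all genes). The groups come from the labels, and the 3 tumours of a group are separate mice. Members, branch lists, marker lists and the rule for named genes were chosen with earlier results of these data known. The rule gave values in each tumour for the 3 members per branch with the largest SD, the 2 with the smallest p, the regulators, Scd1, Scd2, Hmgcs1, Sqle, Acaca and Fasn, and named up to 2 genes per neighbouring list. Other members were chosen after their values were seen. A branch value is the mean over its genes of log2 intensity minus the gene's mean over 6 tumours. For 43 pairs of such values, marker lists or genes r was computed, with no p because the members were not chosen independently of the data. Simulated arrays with known changes were used to test the fit. Python 3.11.15, pandas 2.3.3, numpy 2.4.6 and matplotlib 3.10.9 were used. Listed genes with no probe set of their own were not analysed here.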

Additional observations from a re-analysis of the deposited data

How the results depend on the processing

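In limma 0 members and 0 genes passed an adjusted p of 0.05 under all 14 alternatives, which were array weights, the replicate block, the mean of all probe sets, cyclic loess, a filter on dim genes, a trended and robust prior, arrays centred on their medians, and leaving out each tumour or vehicle tumour 2 together with TMP195 tumour 2. The labels link tumours of the same number by that number alone (correlations of their deviations -0.21, -0.063 and -0.097), and whether they shared a batch is not given. In this balanced layout the replicate block cannot move a difference, only its SE and p. The medians therefore stayed at -0.02 for the sterol branch and -0.11 for the fatty acid branch. Genes at an unadjusted p under 0.05 numbered 502, 243 without dim genes and 938 with array weights, and members at that level 0 or 1.

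Leaving out single tumours, the median difference ran from -0.13 to 0.08 in the sterol branch and from -0.23 to 0.0019 in the fatty acid branch, fatty acid minus sterol from -0.24 to 0.07, and r between the branches from -0.12 to 0.38, and r was -0.10 with medians in place of means. Differences of single genes ran from -0.44 to 0.028 for Mvd, -0.28 to 0.11 for Idi1, -0.14 to 0.25 for Cyp51, -0.26 to 0.018 for Ebp, -0.075 to 0.057 for Hmgcs1, -0.043 to 0.24 for Sqle, -0.40 to 0.066 for Insig1, -0.12 to 0.039 for Srebf1, -1.42 to 0.18 for Thrsp, -0.68 to 0.55 for Olah, -0.47 to 0.073 for Fasn, -0.34 to 0.073 for Acaca, -0.18 to 0.32 for Scd1, -0.11 to 0.0019 for Scd2, -0.029 to 0.46 for Mylip and -1.1e-04 to 0.085 for Npc2. Elovl6, Elovl1, Srebf2 and Acss2 kept their sign without any single tumour. Without vehicle tumour 2 and TMP195 tumour 2 the sterol median was 0.12, with 17 of 17 higher, and the fatty acid median 0.0074. In that fit Scd1 reached an unadjusted p of 0.0233 in limma. Among the genes named by the rule, signs turned there for Mvd (0.12), Idi1 (0.23), Ebp (0.098), Hmgcs1 (0.049) and Insig1 (0.27). They turned as well for Thrsp (0.31), Olah (0.34), Elovl6 (-0.027), Scd1 (-0.31), Scd2 (0.062), Scap (0.0081) and Mylip (-0.29). Members outside the rule also turned, among them Pmvk (0.19), Fdps (0.27), Lss (0.18), Acly (0.087), Acss2 (0.061) and Me1 (-0.037). Among the genes named by the rule, array weights turned Idi1 (0.10), Insig1 (0.0088), Scd1 (-0.098), Scd2 (0.020), Hmgcs1 (0.0088) and Mylip (-0.013). They also turned members outside the rule, among them Fdps (0.13), Lss (0.089), Nsdhl (0.064) and Me1 (-0.011). The cause was not tested.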
